A study of Mus musculus with 9 samples.

Results

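The genes described here were lower when uridine (UD) was added to RANKL-treated cells and stood close to their control level with RANKL alone. They were chosen by group means of FPKM in a deposited table of 56691 mouse genes, where FPKM is fragments per kilobase of exon scaled to the library's total. A gene entered if it had no KEGG pathway (ko) entry in the table, a mean of at least 2 with RANKL, a RANKL to control ratio from 0.8 to 1/0.8 and a RANKL + UD to RANKL ratio of at most 0.7. These limits, and the ratios given below, use means of FPKM plus 0.1. Library values, means and SDs are of FPKM itself unless the added 0.1 is named. Symbols starting with Mir, Snor or Klf were left out, which removed 6 genes, Klf6, Klf9, Klf13, Mir7-1, Snord83b and Mir6993. This left 69 genes.

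The cells were RAW264.7, a mouse macrophage line that forms osteoclasts, the multinucleated cells that resorb bone, when given the cytokine RANKL. There were 3 groups of 3 libraries, namely untreated control, RANKL, and RANKL with UD. Per the study's methods RANKL was given at 50 ng/mL and cells for molecular work were taken at 72 h, and the series' design text gives 3 days of culture. The UD dose of these libraries was not given in the sources used here. All 3 groups came from 1 cell line with no genetic change, so each group is a model of that line, and no primary cells were sequenced.

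Because the ratios of these libraries chose the genes, the fold values of the 69 genes are given as a description and carry no test. Of 40611 genes with no ko entry, 5131 had a RANKL mean of at least 2 and 2752 of these were also within the RANKL to control limits and not left out by symbol. The 69 genes are 2.51% of the 2752. The opposite pattern, a RANKL + UD to RANKL ratio of at least 1/0.7 under otherwise equal limits, held for 74 genes or 2.69%. Among 2538 genes with a ko entry, 61 (2.4%) met the same folds and 67 (2.64%) the opposite ones. On the deposited FPKM the shares of lowered and raised genes were thus of like size, with or without a pathway entry. The raised sets were not recounted under another scaling of the libraries.

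Uridine is a pyrimidine nucleoside that cells take up for RNA synthesis and for the UDP-sugars used in glycosylation. The genes without a KEGG entry share no pathway by construction, and many are regulators known one by one rather than as parts of a metabolic map. Among them are repressors that oppose MYC at E-box DNA (Mxi1 and Mnt), brakes on other transcription programmes (Crebrf, Ciart, Hbp1 and Nab2), inhibitory receptors of myeloid cells (Cd200r1 and Vsir), adaptors for protein degradation and autophagy, and a group of short or unnamed transcripts. The set also holds an activating receptor of myeloid cells (Clec5a) and the transcription factors Atf5 and Rarg.

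Depth and identity checks bear on all values. Library totals ranged from 15951800 to 19746862 counts. All 10 macrophage markers reached an FPKM of 1, with a summed FPKM of 10040.3 to 10607.6 in control, 2795 to 3045 with RANKL and 2394 to 2529 with RANKL + UD. Of 8 osteoclast markers 7 reached an FPKM of 1, and their sum was 46.7 to 49.9 in control, 2639 to 2843 with RANKL and 1665 to 1702 with RANKL + UD. Markers of fibroblasts, T cells, B cells, epithelium and endothelium stayed under an FPKM of 1 in every library, Cd3e, Cd8a, Ms4a1 and Cdh1 were at 0 throughout, and the erythroid genes Hbb-bs and Hba-a1 were at 0 in all 9 libraries. The osteoclast and macrophage sums thus both fell from RANKL to RANKL + UD, in the same comparison as the 69 genes. They are sums, which a few abundant genes can carry, and do not show each marker. Their part in the values below was not tested. In bulk RNA, fewer cells of a type and less RNA per cell cannot be told apart.

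**Figure D1:**
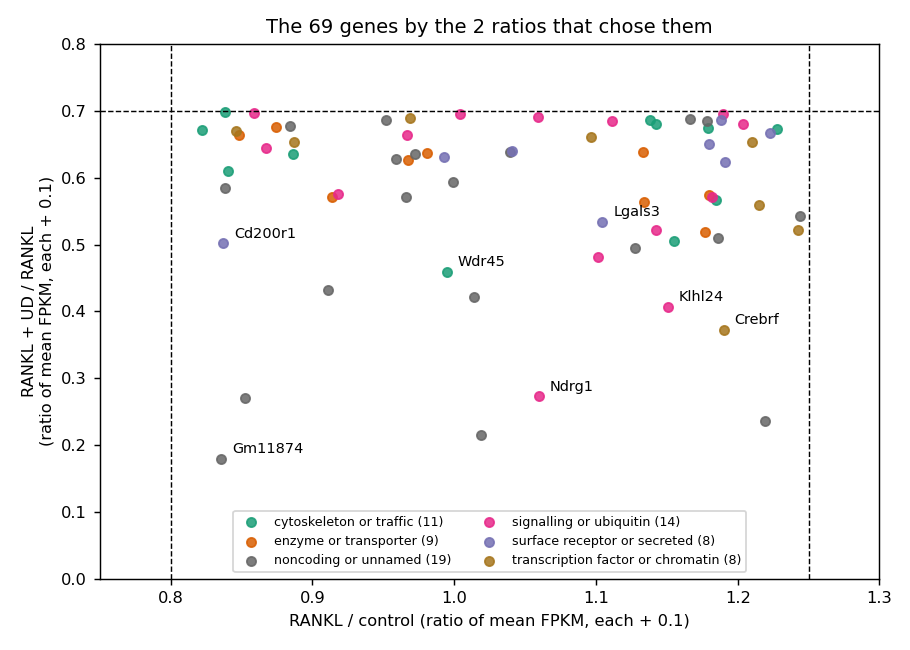
Each point is 1 of the 69 genes, placed by its RANKL to control ratio (x axis) and its RANKL + UD to RANKL ratio (y axis), both ratios of mean FPKM plus 0.1 and coloured by role class; dashed lines are the limits of the rule. Most points crowd under the upper limit, and Ndrg1, Crebrf, Klhl24, Wdr45 and a few unnamed genes lie lowest.

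The RANKL + UD to RANKL ratio had a median of 0.631 over the 69 genes. It was at most 0.5 in 12, between 0.5 and 0.6 in 18 and over 0.6 in 39. Just inside the limit stood Lzts2 (0.6953), Dok2 (0.6968) and Kiz (0.6977), and just outside it Nr1d2 (0.7009), Leprotl1 (0.7019) and Gpr146 (0.7036), so the edge of the set is a matter of the chosen limit. At the limit on level, Gm13073, Gm45820 and Gm8873 entered with RANKL means plus 0.1 of 2.19, 2.32 and 2.34, while Gm23248, Gm44321 and Slc35d2 stayed out at 1.85, 1.89 and 1.97. In 60 of the 69 genes the highest RANKL + UD library was under the lowest RANKL library, a pattern that 17.6% of the 11995 tested genes showed. In 55 they were below the other 6 libraries, against 8.13% of tested genes. The edgeR quasi-likelihood fit called 59 of the 69 lower in RANKL + UD than in RANKL at an adjusted p under 0.05, 0 higher and 10 neither, where 20.2% of all tested genes were called lower. These counts restate the rule and nothing is read from them.

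The strongest values among genes with many reads belonged to Ndrg1, Crebrf and Klhl24. Ndrg1 (ENSMUSG00000005125) encodes a cytoplasmic stress-responsive protein that is induced by low oxygen and during differentiation. The table places it on the minus strand of chromosome 15, from 66801167 to 66841489. Its FPKM was 47.2, 47.3 and 47.0 in the control libraries, 49.3, 50.4 and 50.2 with RANKL, and 13.9, 13.5 and 13.4 with RANKL + UD. The 6 libraries without UD lay within a few units of each other and the 3 with UD lay far under them. The means were 47.2 ± 0.182, 49.98 ± 0.56 and 13.6 ± 0.247 (SD, n = 3 each), a RANKL + UD to RANKL ratio of 0.2735, or a fitted log2 difference of -1.96 with a standard error (SE) of 0.05. It rested on 6354 to 6423 counts per RANKL library and 1456 to 1799 per RANKL + UD library.

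Crebrf (ENSMUSG00000048249, chromosome 17, 26934624 to 26995609, plus strand) encodes a nuclear regulator that restrains the stress factor CREB3. Its FPKM was 9.28, 10.1 and 8.10 in control, 12.1, 10.5 and 10.2 with RANKL, and 4.43, 3.65 and 3.94 with RANKL + UD. Every library with UD was lower than every library without it. The ratio was 0.3725 (log2 -1.53, SE 0.09), and after TMM scaling its RANKL to control ratio passed the limit of the rule. Klhl24 (ENSMUSG00000062901, chromosome 16, 19916292 to 19947971, plus strand) encodes a Kelch-repeat adaptor that brings substrates to a cullin ubiquitin ligase. Its FPKM was 17.4, 17.9 and 15.7 in control, 20.9, 19.5 and 18.3 with RANKL, and 8.00, 8.28 and 7.45 with RANKL + UD. Again the UD libraries did not reach the others, with a ratio of 0.407 (log2 -1.39, SE 0.06).

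**Figure D2:**
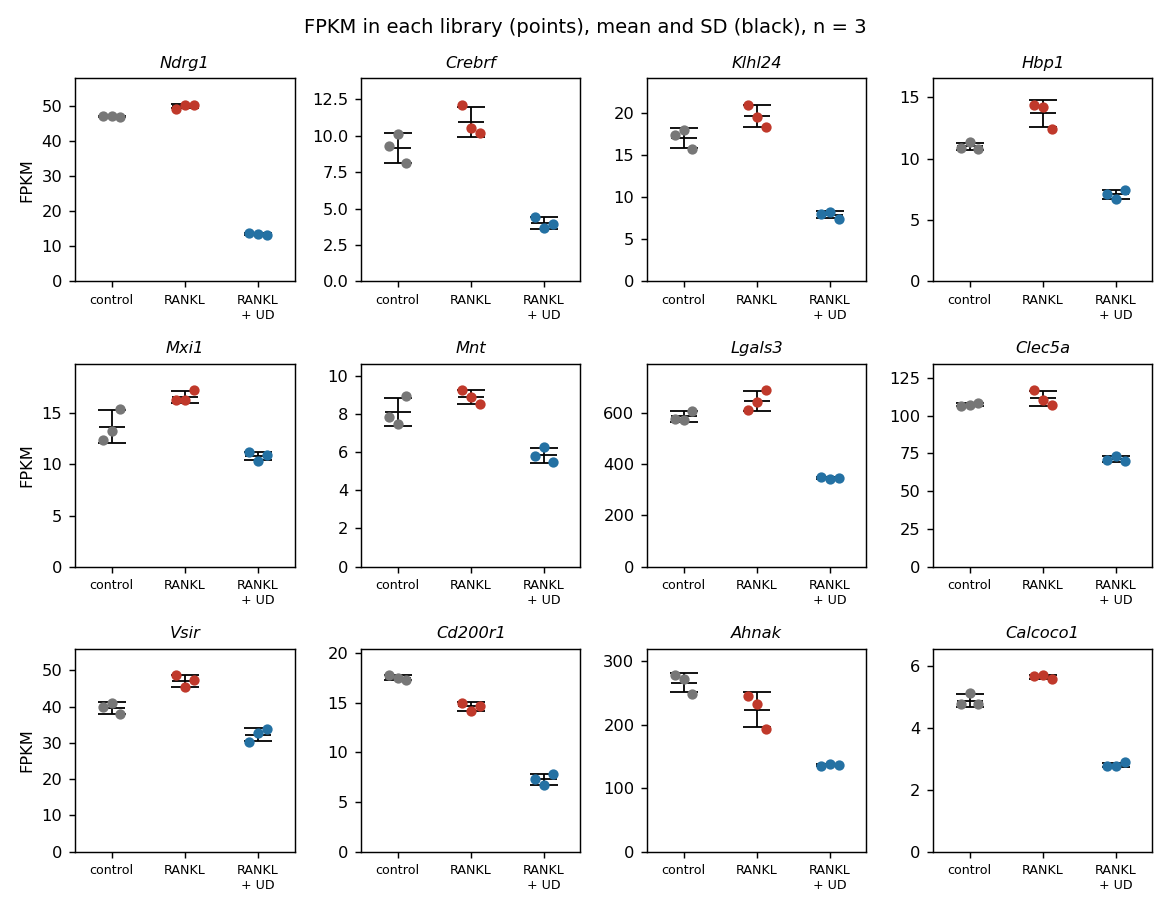
FPKM of 12 of the genes (y axis, from 0) in each of the 3 control, 3 RANKL and 3 RANKL + UD libraries (x axis); coloured points are libraries and black bars the mean and SD. In each of the 12 panels the 3 RANKL + UD points lie below the 6 others, for example Ndrg1 at 13.4 to 13.9 against 47.0 to 50.4. The rule that chose the genes favours this order, which 8.13% of tested genes showed. Members without it, such as Ciart, Rfesd and Trmo, are not among the panels, so nothing is read from the 12.

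The transcription factors and chromatin regulators numbered 8, several of them known as repressors. The GO term for negative regulation of transcription from RNA polymerase II promoters was given to 7.2% of the 69 and to 4.8% of the 2752 genes under the same conditions, which was not tested. The matching term for positive regulation was given to 5.8% and 5.5%. The RANKL + UD to RANKL ratios of the 8 ran from 0.3725 to 0.6896 with a median of 0.653. In 8 of 8 the UD libraries lay under each RANKL library, against 17.6% of tested genes, an order that the rule favours. Hbp1, an HMG-box repressor of cell cycle genes, had FPKM of 10.9, 11.3 and 10.8 in control, 14.4, 14.2 and 12.4 with RANKL, and 7.09, 6.68 and 7.48 with RANKL + UD. It stood at the upper edge of the RANKL to control limit (1.2424), and UD placed it below control as well as below RANKL (log2 -1.03 against RANKL, SE 0.07). Hbp1 shares genomic span with Cog5 on the opposite strand, whose ratio was 1.166.

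Mxi1 and Mnt are MAX partners that compete with MYC for E-box sites and repress there. Mxi1 was at 12.4, 13.3 and 15.5 FPKM in control, 16.3, 16.3 and 17.3 with RANKL, and 11.2, 10.4 and 10.9 with RANKL + UD. Mnt was at 7.87, 7.50 and 8.96 in control, 9.26, 8.92 and 8.53 with RANKL, and 5.79, 6.27 and 5.48 with RANKL + UD. In both, the UD libraries were below control and RANKL libraries alike, and the ratios were 0.6534 and 0.6605. Myc itself is no member. Its mean FPKM in the control, RANKL and RANKL + UD groups was 0.767, 36.3 and 14.01, so the gene for the factor that Mxi1 and Mnt oppose also fell with UD (edgeR log2 -1.46, SE 0.07, adjusted p = 1.59e-12) but, unlike them, was far above control with RANKL.

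Ciart, a repressor of the CLOCK and BMAL1 pair of the circadian clock, was at 2.05, 2.73 and 3.11 FPKM in control, 2.87, 3.25 and 3.53 with RANKL, and 1.51, 2.11 and 1.64 with RANKL + UD. Here the highest UD library passed the lowest control library, while RANKL and RANKL + UD did not overlap. Nab2, a corepressor of EGR factors, had means of 16.6 ± 1.62, 14.7 ± 1.01 and 9.59 ± 0.559 FPKM (SD, n = 3 each) in control, RANKL and RANKL + UD. Atf5, a leucine-zipper factor of the stress response, had means of 12.9 ± 1.92, 12.5 ± 0.856 and 8.60 ± 0.375. The span of Nab2 overlaps Stat6 and Nemp1, and that of Atf5 overlaps Nup62, each on the opposite strand, and the partners' ratios were 0.997, 1.24 and 1.014. Rarg, a retinoic acid receptor, completes the class with means of 5.29 ± 0.476, 4.46 ± 0.121 and 2.96 ± 0.196.

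Promoter letters were read for the regulators, since several bind or oppose factors at known motifs. RefSeq windows of 250 bases before to 50 after the start of a gene (GRCm38.p6) were found by symbol for 41 of the 69. The 250 upstream bases of 4 members are printed in the direction of the gene. Crebrf (chr17:26715400-26715649, plus strand), Ciart (chr3:95882229-95882478, minus strand) and Mnt (chr11:74830674-74830923, plus strand) are shown because they hold the E-box CACGTG, in capitals, and Hbp1 (chr12:31950246-31950495, minus strand) because it holds the forkhead letters GTAAACA, in capitals.
Crebrf: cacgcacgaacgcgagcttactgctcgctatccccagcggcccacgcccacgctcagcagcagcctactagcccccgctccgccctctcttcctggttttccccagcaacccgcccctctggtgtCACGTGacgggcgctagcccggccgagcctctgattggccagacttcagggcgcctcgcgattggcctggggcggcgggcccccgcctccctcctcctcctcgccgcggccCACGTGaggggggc
Ciart: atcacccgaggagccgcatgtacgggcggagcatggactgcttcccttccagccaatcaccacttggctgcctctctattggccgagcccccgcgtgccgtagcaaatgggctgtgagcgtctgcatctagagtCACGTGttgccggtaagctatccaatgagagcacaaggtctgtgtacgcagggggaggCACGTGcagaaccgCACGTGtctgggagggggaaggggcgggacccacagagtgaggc
Mnt: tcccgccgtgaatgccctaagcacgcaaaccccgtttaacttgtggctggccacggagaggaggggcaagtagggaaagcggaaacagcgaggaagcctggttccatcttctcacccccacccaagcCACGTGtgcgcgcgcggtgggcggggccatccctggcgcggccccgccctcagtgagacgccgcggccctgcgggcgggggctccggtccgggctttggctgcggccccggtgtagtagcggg
Hbp1: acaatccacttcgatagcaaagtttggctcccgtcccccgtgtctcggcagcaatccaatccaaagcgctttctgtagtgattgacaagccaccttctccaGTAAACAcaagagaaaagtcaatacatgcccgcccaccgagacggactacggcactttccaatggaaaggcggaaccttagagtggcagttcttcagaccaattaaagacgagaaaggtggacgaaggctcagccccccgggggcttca
Counting back from the start, the first letter of each E-box lies at -125 and -14 in Crebrf, at -116, -58 and -44 in Ciart and at -123 in Mnt, and the forkhead letters of Hbp1 begin at -149.

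CACGTG occurred on either strand in 6 of the 41 windows (14.6%), those of Ciart, Crebrf, Jmy, Mnt, Rfesd and Tmc6, against 10.8% of 8369 windows of tested genes and 7.24% of all 27025 windows. Its inner letters ACGTG, which every full E-box also contains, occurred in 34.1%, 27.3% and 19.7%. GTAAACA was found in 3 windows (7.32%), those of Hbp1, Jmy and Kiz, against 2.45% and 3.55%. GGGCGG, the GC box, was found in 78% against 65.7% and 35.9%. CCGGAA, the ETS core, was found in 14.6% against 31.6% and 15.2%. CCAAT was found in 36.6%, 39.6% and 37.9%. TATAAA was found in 4.88%, 6.57% and 14.2%, and its holders were Clec5a and Gm13073. The AP-1 letters TGANTCA were found in 7.32%, 4.91% and 7.93%, and the antioxidant letters TGACNNNGC in 14.6%, 15% and 12.5%. The CRE letters TGACGTCA were in 0 of the 41 windows, against 3.48% of tested genes. The C/EBP-ATF letters TGATGNAA were also in 0, against 2.22%. Median GC content was 63.7% in the members' windows, 61% in those of tested genes and 52.7% in all. A match here is a description of letters and not of a bound site.

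Surface receptors and secreted proteins were 8 of the 69, with ratios of 0.5018 to 0.6868. Lgals3, which encodes the sugar-binding lectin galectin-3, was the most abundant of all 69. Its FPKM was 576, 573 and 609 in control, 610.4, 642 and 689 with RANKL, and 350.0, 340.2 and 347 with RANKL + UD. The highest UD library was well under the lowest of the other 6, and the ratio was 0.534 (log2 -0.99, SE 0.05). Clec5a, an activating lectin receptor of myeloid cells, was at 106.4, 106.7 and 108 in control, 117, 110.5 and 107 with RANKL, and 70.9, 73.3 and 69.7 with RANKL + UD.

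The inhibitory receptors differed in their RANKL side. Cd200r1, the receptor for CD200, was at 17.8, 17.5 and 17.2 FPKM in control, 15.0, 14.2 and 14.7 with RANKL, and 7.28, 6.72 and 7.85 with RANKL + UD. It was lower with RANKL (ratio 0.837) and lower again with UD (0.502), with 3 levels that did not overlap. Vsir, which encodes the checkpoint VISTA, was at 39.8, 41.0 and 37.9 in control, 48.7, 45.3 and 47.2 with RANKL, and 30.3, 32.7 and 33.8 with RANKL + UD. It was higher with RANKL (ratio 1.19) and then below control with UD. Stc2, a secreted stanniocalcin that is listed with hypoxia genes, had means of 2.22 ± 0.025, 2.67 ± 0.251 and 1.62 ± 0.176 (SD, n = 3 each). The rest of the class was Mmp19, an extracellular protease, Loxl3, a lysyl oxidase, and Scimp, a transmembrane adaptor of antigen-presenting cells, at RANKL means of 2.61, 2.90 and 7.63 FPKM.

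Signalling and ubiquitin genes were 14 of the 69. Beside Ndrg1 and Klhl24 they held Stac2, an SH3-domain adaptor of calcium channels, at 8.04, 8.58 and 9.87 FPKM in control, 9.55, 9.77 and 9.88 with RANKL, and 3.99, 4.96 and 4.94 with RANKL + UD (ratio 0.481). Of its abundant genes Ndrg1 had the lowest ratio of the class, and 3 others had higher ones. Niban2 had means of 54.2 ± 2.30, 60.3 ± 2.16 and 41.3 ± 0.886 FPKM. Dok2, a docking adaptor that dampens tyrosine kinase signals, had 50.8 ± 1.102, 43.6 ± 2.58 and 30.4 ± 2.08. Rhoc, a small GTPase of the actin cytoskeleton, had 48.3 ± 4.99, 41.9 ± 3.81 and 27.0 ± 1.85 (SD, n = 3 each). In 14 of 14 the UD libraries were below the other 6, against 8.13% of tested genes, an order that the rule favours. Klhl24, Mib2 (a ligase of the Notch pathway), Trim36 and Fbxl20 are parts of ubiquitin ligases, with ratios of 0.407, 0.664, 0.6801 and 0.6905.

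Genes of the cytoskeleton, traffic and autophagy numbered 11, with a median ratio of 0.671. Ahnak, a very large scaffold protein under the plasma membrane, was at 278, 272 and 248.7 FPKM in control, 246, 233 and 192 with RANKL, and 134, 138 and 137 with RANKL + UD. RANKL replicate 3 was the lowest of the 6 libraries without UD and still lay above all UD libraries. Dram2, a lysosomal membrane protein of autophagy, had means of 30.4 ± 1.03, 34.6 ± 0.436 and 23.7 ± 0.775. Wdr45, which binds the phosphoinositide of forming autophagosomes, was at 3.66, 3.93 and 3.73 in control, 3.53, 4.19 and 3.54 with RANKL, and 1.60, 1.56 and 1.85 with RANKL + UD, a ratio of 0.4593. Calcoco1, a receptor for autophagy of the endoplasmic reticulum, was at 4.77, 5.12 and 4.77, then 5.68, 5.71 and 5.59, then 2.76, 2.78 and 2.89. All 3 autophagy genes had RANKL + UD libraries below the other 6, against 8.13% of tested genes, an order that the rule favours. Arl14ep (RANKL mean 21.03 FPKM, ratio 0.6352) and Mtss1, which bends membranes at actin-rich edges (17.3, ratio 0.6724), were the next most abundant. Kif21b, a kinesin motor, Jmy, an actin nucleator, Kiz, a centrosome protein, Mgarp, a mitochondrial protein, and Ahnak2 made up the class.

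Enzymes and transporters were 9. Dnase1l1, a DNase I relative, had means of 29.3 ± 1.28, 28.4 ± 1.27 and 17.7 ± 0.541 FPKM. Osbpl2, an oxysterol-binding lipid carrier, had 13.9 ± 0.899, 12.7 ± 0.526 and 7.21 ± 0.427. Dhx34, an RNA helicase of nonsense-mediated decay, had 8.56 ± 0.241, 9.72 ± 1.125 and 5.44 ± 0.216 (SD, n = 3 each). Dnajc30, a mitochondrial J-domain protein, had a RANKL mean of 5.76 and a ratio of 0.5742. In 8 of 9 the UD libraries lay under each RANKL library, against 17.6% of tested genes, an order that the rule favours. The exception was Trmo, a tRNA methyltransferase, at 2.75, 1.87 and 2.55 with RANKL and 2.35, 0.81 and 1.5 with RANKL + UD, where UD replicate 1 lay between RANKL libraries.

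The remaining 19 genes were noncoding or unnamed, and 16 of them were thinly read. These 16 stayed under 100 counts in every library, and no gene of another class did. Their RANKL + UD to RANKL ratios reached the lowest values of the set, but 8 of the 16 overlapped between RANKL and RANKL + UD, against 1 of the other 53 genes (Trmo). Gm11874, a processed pseudogene with an exonic length of 130 bases, had 8, 11 and 17 counts in control, 16, 10 and 8 with RANKL, and 1, 0 and 4 with RANKL + UD. Its ratio of 0.1798, the lowest of the 69, thus rests on 5 counts in the UD group. Gm49888, an intronic RNA of 219 exonic bases, had 16, 35 and 19 counts in control, 20, 24 and 25 with RANKL, and 13, 9 and 5 with RANKL + UD, which do not overlap. ENSMUSG00000120390, with no name in the table, was at 8.46, 7.67 and 5.93 FPKM with RANKL and 4.58, 4.05 and 3.83 with RANKL + UD. The U6 copy ENSMUSG00002076468 had 12, 2 and 9 counts with RANKL and 0, 1 and 3 with RANKL + UD, which overlap.

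Of the 69 genes, 6 had an exonic length of 57 to 132 bases, shorter than the 150-base reads, and mean RANKL counts of 6 to 40.7. They were Gm11874, the U6 copy, Gm23908, Gm23205, Gm22200 and ENSMUSG00002076173. ENSMUSG00002076173, of 57 bases, stood among the 10 highest FPKM of the set (27.6, 48.1 and 34.8 with RANKL) on a mean of 40.7 counts per RANKL library. U6 and 7SK copies are multigene families, so reads could have been split among near-identical copies and the values of both are uncertain. In the thinly read genes the coefficient of variation within a group had medians of 30.5%, 27.5% and 34.8% in the control, RANKL and RANKL + UD groups. In the other 53 it was 6.3%, 6.7% and 6.8%. Without the 16 the median ratio of the set was 0.638.

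**Figure D3:**
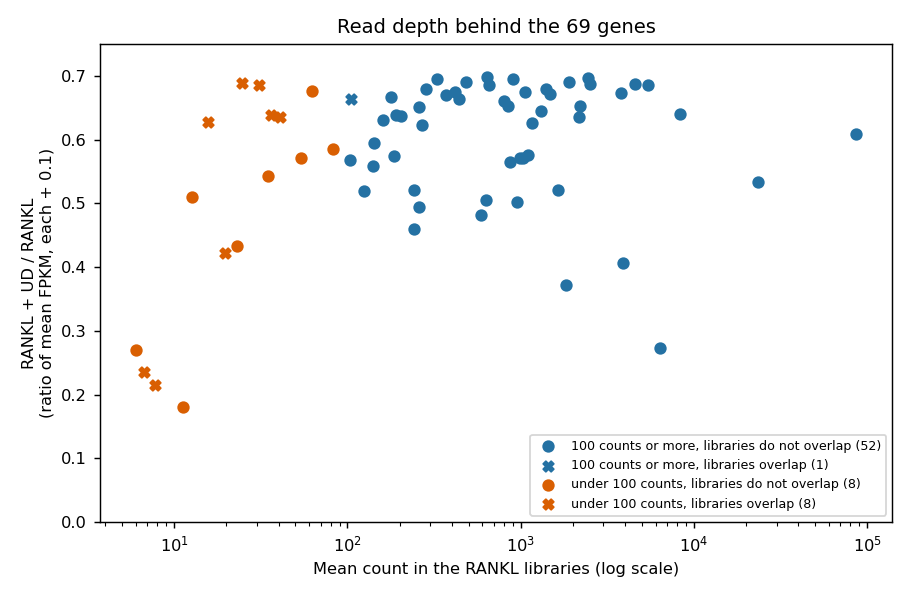
The RANKL + UD to RANKL ratio (y axis, mean FPKM plus 0.1) of the 69 genes against their mean count in the RANKL libraries (x axis, log scale); orange points stayed under 100 counts in every library, and crosses have UD libraries that overlap RANKL libraries. The overlaps sit at the low-count side (8 of 16 against 1 of 53), and Ndrg1, Klhl24 and Crebrf are the low ratios at the well-read side.

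The 3 better-read genes of the class were Gm43351, Gm30042 and B230217C12Rik. Gm43351, a long intergenic RNA of 326 exonic bases on chromosome 3, was at 84.3, 96.9 and 84.2 FPKM in control, 100.6, 100.5 and 112 with RANKL, and 82.7, 61.5 and 70.2 with RANKL + UD. The UD libraries were below the RANKL libraries and below the control libraries. Gm30042, annotated as antisense RNA, was at 5.71, 5.10 and 6.09 with RANKL and 2.62, 2.95 and 2.64 with RANKL + UD, a ratio of 0.4948. B230217C12Rik, annotated as protein-coding, was at 3.71, 2.70 and 3.32 with RANKL and 1.95, 1.67 and 2.04 with RANKL + UD.

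The 69 were set beside the 2752 genes that met the same conditions on pathway entry and RANKL, with and without the 16 thinly read genes. The 2752 had no floor on counts. Their lowest mean RANKL count was 3.7, against 103.3 in the other 53, so these sets were not filtered alike. The median exonic length was 3348 bases over the 69 and 4185 over the other 53, against 4377 over the 2752. The median RANKL level was 6.25 FPKM over the 69 and 8.90 over the 53, against 8.95. GENCODE M21 listed 50 genes as protein-coding, all among the 53, which is 72.5% of the 69 and 94.3% of the 53, against 92.8% of the 2752. The 69 lay on 19 chromosomes, with 8 on chromosome 11. By the table's own GO terms, looked up after the members were known, negative regulation of cell proliferation was given to 5 (7.2%), Atf5, Lzts2, Ndrg1, Niban2 and Rarg, against 1.2% of the 2752. The extracellular region was given to 5 (7.2%), Lgals3, Loxl3, Mmp19, Stc2 and Ypel5, against 1.5%. Cellular response to hypoxia was given to 3, Mgarp, Ndrg1 and Stc2, or 4.3% against 0.5%. The nucleoplasm went the other way, with 11.6% against 26.4%. Other terms differed as much, such as adherens junction (5.8% against 0.4%) and external side of plasma membrane (4.3% against 0.3%). No set rule picked the terms named here. All shares are over the full 69, thinly read genes included. They describe the annotation and were not tested.

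Some spans are shared with other expressed genes. The table's coordinates put 21 of the 69 over another gene with a RANKL mean of at least 1 FPKM, 16 on the opposite strand and 5 on the same strand only. The libraries kept strand, but whether the counting used it was not given in the sources used here, so reads in shared exons could have been given to either gene. Of 26 such pairs the partner had a RANKL + UD to RANKL ratio above 0.7 in 23. The exceptions were Gm14846 over Dnase1l1 (0.179), Gm10135 over the U6 copy (0.247) and Tmem198b over Mmp19 (0.613). The short RNAs within Hspa9, Rnf14 and Csgalnact2 (Gm22200, Gm23205 and Gm23908) had host ratios of 0.879, 1.011 and 0.772.

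Against control, the RANKL level of the 69 was narrow by construction but not flat. The ratio was above 1 in 40 and below 1 in 29, at least 1.1 in 32 and at most 0.9 in 15, with a median of 1.059. In the edgeR fit, which rescales the RANKL libraries by TMM factors of 0.959 to 0.963, 25 of the 69 were called higher with RANKL and 4 lower (Cd200r1, Ahnak, Kif21b and Dok2), where 27.3% and 30.2% of all tested genes were. After rescaling FPKM by TMM, 19 of the 69 passed the upper RANKL to control limit and would leave the set. These were Crebrf, Hbp1, Ciart, Mxi1, Vsir, Stc2, Loxl3, Mmp19, Mgarp, Mtss1, Ahnak2, Ypel5, Trim36, Ric8a, Dnajc30, Gm43351, Gm33103, Gm22200 and Gm23908, so their place near the control level depends on the scaling. The split of calls moved with scaling too, to 15 higher and 8 lower on total counts without TMM and to 13 and 7 with limma. The genes called lower were 1 with RLE size factors, with DESeq2 or with only the 6 libraries compared, and 2 with no filter. They also rested on single libraries, since they were 0 without control replicate 2 and 2 without control replicate 1, any 1 RANKL library, or RANKL + UD replicate 2 or 3. As these are ratios of the rule, nothing is read from the calls.

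Against control, RANKL + UD was lower in all 69, with ratios of 0.15 to 0.827 and a median of 0.606. The rule allows at most 0.875 here, so the direction is fixed by the choice of genes. The ratio was at most 0.7 in 52. The edgeR fit called 57 lower and 0 higher, with 27.3% of all tested genes called lower and 26.7% higher in this comparison. The group means with RANKL + UD stood below both others in these genes, not between them. For Ndrg1 the ratio to control was 0.2898, for Crebrf 0.4433, for Klhl24 0.4684 and for Lgals3 0.5899.

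Lists of known programmes give the surroundings of the set. They hold genes with and without pathway entries, and were written with earlier results of these data known. Lists share some genes, Slc7a11, Atf3, Bnip3 and Txnip among them, so the counts of different lists are not independent. Of 18 tested hypoxia-inducible genes, edgeR called 16 lower with UD, 0 higher and 2 neither (median log2 -0.70), and 15 higher with RANKL. The members Ndrg1, Mxi1 and Stc2 are among the 16. The rule chose these 3 for low values with UD, so their calls are no result, and they also enter the median. Apart from them the largest were Ankrd37, Ero1a, an oxidase of protein folding, and Ddit4, an inhibitor of mTOR signalling, at log2 -1.39 (SE 0.13, adjusted p = 3.1e-08), -1.36 (SE 0.05, adjusted p = 9.04e-15) and -1.30 (SE 0.21, adjusted p = 5.69e-05) by edgeR. Ero1a and Ddit4 had risen with RANKL while Ankrd37 had fallen (log2 0.70, 0.64 and -0.76). Of 16 tested ATF4-CHOP stress genes 15 were lower with UD and 0 higher (median -0.92), and 10 were higher with RANKL and 5 lower. None of these 16 is a member. The list is not complete, since the member Atf5, described above as a factor of the stress response, was not on it. Trib3, Chac1 and Ddit3, which are targets and the CHOP gene of that response, had log2 values of -2.81 (SE 0.11), -2.37 (SE 0.19) and -2.18 (SE 0.10) with edgeR adjusted p of 1.12e-13, 4.33e-09 and 8.9e-13. The share of all tested genes called lower with UD was 20.2%.

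**Figure D4:**
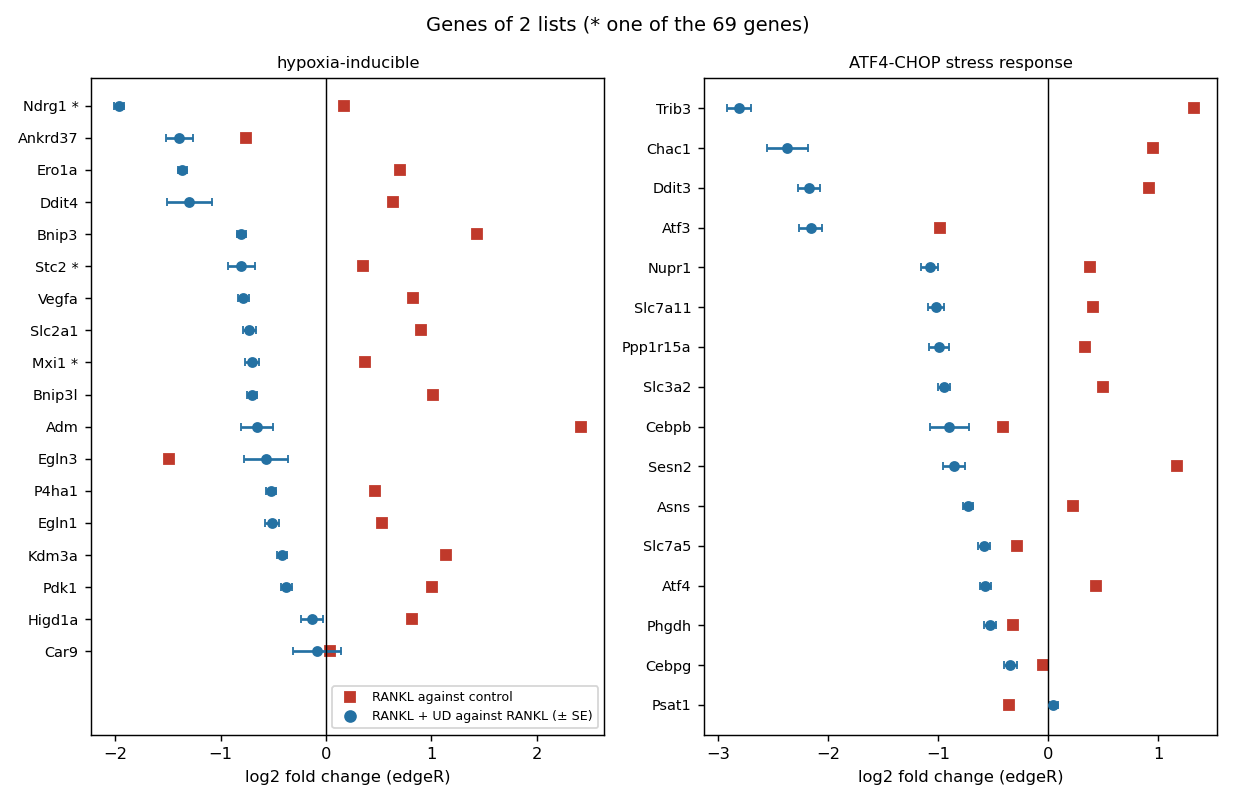
Fitted log2 fold changes (x axis, edgeR) of tested genes of the hypoxia-inducible list (left) and the ATF4-CHOP list (right), with RANKL + UD against RANKL as blue circles with SE and RANKL against control as red squares; asterisks mark members of the 69. Blue circles lie left of 0 in all but Psat1. The asterisked genes Ndrg1, Stc2 and Mxi1 lie nearer 0 on the RANKL side than most of the hypoxia list. The rule that chose them fixes this, and also places their blue circles left of 0, so neither is a finding about them.

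The circadian list held 12 tested genes, of which 8 were lower with UD and 2 higher (median log2 -0.45). Ciart is the member, so its place among the 8 follows from the rule. Bhlhe41, Bhlhe40 and Nr1d2 were lower at log2 -1.28, -0.73 and -0.60 with edgeR adjusted p of 7.42e-08, 2.22e-09 and 1.47e-07. The 2 higher were Cry1 and Clock, at log2 0.54 and 0.49 with edgeR adjusted p of 2.15e-05 and 1.04e-05, so the clock genes did not move as 1. Nr1d2 lay just outside the rule. Of 17 FoxO target genes 10 were lower and 3 higher (median -0.51), led by the growth arrest gene Gadd45a (log2 -2.14, edgeR adjusted p = 6.33e-08) and by Txnip in the other direction (log2 2.25, edgeR adjusted p = 5.17e-18). Of 19 immediate early genes 10 were lower and 1 higher (median -0.57), with Atf3 at -2.16, Myc at -1.46 and Egr2 at -1.13. Of 16 ER chaperone and unfolded protein genes 6 were lower and 0 higher (median -0.07), with Herpud1 at -0.74, Dnajb9 at -0.64 and Edem1 at -0.28. Of 23 histone lysine demethylases and methyltransferases 10 were lower and 2 higher (median -0.10), with Kdm5b at -0.97, Kdm4b at -0.72 and Kdm6b at -0.63.

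Other lists leaned to higher values or to neither side. Of 20 type I interferon genes 9 were higher and 1 lower with UD (median log2 0.29), after 20 of 20 were lower with RANKL, and Ifit1, Cxcl10 and Ifit2 stood at 1.42, 1.26 and 0.79. Of 15 p53 target genes 7 were higher and 5 lower (median 0.26), although the largest changes were in lower genes, Plk2 at -1.88, Trp53inp1 at -0.81 and Bbc3 at -0.79. Of 15 cholesterol synthesis genes 6 were higher and 3 lower (median 0.13), with Sc5d and Stard4 both at 0.52. Of 10 NRF2 antioxidant genes 5 were higher and 2 lower (median 0.18), with Hmox1 at -1.11, Slc7a11 at -1.02 and Txn1 at 0.30. Of 9 heat shock genes 2 were higher, Hsph1 at 0.47 and Hspd1 at 0.24, and 0 lower (median 0.04). Of 9 glucose-sensing and arrestin-like genes 4 were lower and 2 higher (median -0.17), the latter Arrdc4 at 2.86 and Txnip, while Arrdc3 stood at -0.53. Of 17 NF-kB target genes 5 were lower and 1 higher (median -0.18), with Cxcl2 at -0.89, Relb at -0.41 and Tnfaip3 at -0.39. Of 22 splicing and speckle genes 6 were higher and 3 lower (median 0.08), with Luc7l3 at 0.75, Pnisr at 0.73 and Neat1 at -0.48. The call of Neat1 was lost with DESeq2, with limma and without RANKL replicate 1 or RANKL + UD replicate 2 or 3. The shares of all tested genes were 20.2% lower and 18.6% higher.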

How the data were processed

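RNA of 9 RAW264.7 libraries was sequenced as 150-base paired ends from dUTP strand-specific libraries. Counts per gene were deposited by the authors as whole numbers without normalization. The authors also deposited FPKM, which was recovered from counts, exonic length and library totals within 0.0101 for 100% of genes in every library. The labels name mm10, but of 52073 genes shared with GENCODE M21 on that build 1472 had the table's coordinates, so table coordinates belong to a build the file does not name. The aligner, counter and annotation were not given in the sources used here. All 18 value columns were matched to the 9 libraries by name, with the RANKL libraries called the model group in the table.

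The members were picked on group means of FPKM plus 0.1. Counts were fitted with edgeR 4.0.16 in R 4.3.3 (quasi-likelihood, TMM, all 9 libraries, Benjamini-Hochberg adjustment over all tested genes) for 11995 genes that reached FPKM 1 in 3 or more libraries. The procedure was also run on simulated data in which all genes shared the same dispersion. Such data do not cover genes whose spread is wider, so nothing is read from that run. The p-values measure the spread between these libraries, which the series describes as biological replicates. The members, the gene lists, role classes and marker lists were chosen with earlier results of these data known. Named were the 12 members with the lowest RANKL + UD to RANKL ratio, the 10 with the highest RANKL FPKM, members in a list, up to 4 per role class by RANKL FPKM, the 3 genes at each side of the limits, and up to 3 called genes per list. Mnt, Calcoco1, Rarg, Trmo and other members beyond this, and the list genes Cry1 and Clock, were named after their values were seen. Single results for some genes are left out. Promoters came from RefSeq (GRCm38.p6), with the first listed window of a gene used. DESeq2 1.42.0 and limma 3.58.1 on log2(FPKM + 1) were alternatives. Tables were made in Python 3.11.15 with pandas 2.3.3.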

Additional observations from a re-analysis of the deposited data

How the results depend on the processing

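The size of the set follows its limits. It was 105 genes at a RANKL mean of at least 1 and 41 at 5, 30 at a RANKL + UD to RANKL ratio of at most 0.6 and 166 at 0.8, and 22 with RANKL to control ratios of 0.9 to 1.1. Rescaling FPKM by TMM gave 84 genes with 50 of the 69 among them, as 19 passed the RANKL to control limit and 34 entered. A pseudocount of 1 gave 64 (45 kept), group medians 73 (55 kept), and a floor of 100 counts in a library, added after seeing the data, 53. Leaving out 1 library at a time gave 67 to 77 genes with 56 to 66 of the 69 kept, and 29 genes were kept in all 9 such settings. Genes lower in RANKL + UD than in RANKL numbered 1556 with limma on log2(FPKM + 1) against 2418 with edgeR, and total counts without TMM gave 1709 lower and 3348 higher against 2418 and 2233, with the median gene at log2 0.09 instead of 0.01. Of the 69 genes, 54 to 61 were called lower with UD over all settings run, and no fitted value among those called in the main analysis changed sign. In the main analysis 20.2% of all tested genes were called lower. The rule chose the 69 for low values with UD in these libraries, so these calls and signs are no check of it.

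Replicate numbers gave no clear pairing of the libraries. Deviations of same-numbered libraries correlated at -0.019 to 0.098. Replicate 1 correlated best with its own number in every comparison, and replicates 2 and 3 did so only in some. Whether the libraries were paired was thus not settled. With the number as a replicate block the counts were 2518 lower and 2347 higher for RANKL + UD against RANKL, 3694 and 3346 for RANKL against control, and 3334 and 3268 for RANKL + UD against control. Of the 69, 59 stayed called lower with UD, an outcome that the rule favours. Libraries of 1 group differed by more than sampling noise (chi-square per degree of freedom of 3 to 9.75 over 9 pairs), so none was counted as a repeat.

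Depth limits the 16 members under 100 counts. At 0 to 4 counts per RANKL + UD library, as in Gm11874, a ratio is a few reads wide, and the values cover counting error and replicate spread only.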
